A study of Mus musculus with 13 samples.

Results

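Purinergic receptors bind ATP and other nucleotides released outside cells. Transcripts of 10 of them, P2rx2 to P2rx7 of the P2X family and P2ry1, P2ry2, P2ry12 and P2ry14 of the P2Y family, were followed here in Ret-positive cells of mouse dorsal root ganglia (DRG), the ganglia that hold the cell bodies of the sensory neurons of the trunk and limbs. The genes were chosen by name and found by their Ensembl identifiers. They are 10 of 41388 genes in the deposited count tables, and 10 of the 15406 genes with enough counts to be tested. None of the 10 passed an adjusted p under 0.05 in the 7 comparisons of the main edgeR fit. The receptor nearest to that threshold was P2rx2, with more transcript in ganglia of levels L6 and S1 than of L3, L4 and L5 in both sexes.

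P2X receptors are cation channels that open when ATP binds. Each channel holds 3 subunits, and P2X2 and P2X3 subunits can join in 1 channel, whose current decays more slowly than that of channels of P2X3 alone. P2Y receptors are G protein-coupled receptors: P2Y1 and P2Y12 respond to ADP, P2Y2 to ATP and UTP, and P2Y14 to UDP-glucose. P2rx3 is a known gene of small-diameter nociceptors of the nonpeptidergic class, which depend on Ret. Ganglia at L6 and S1 receive the afferents of the pelvic nerve, which serves the bladder and the distal colon, and ATP released by the stretched bladder acts on P2X3 and P2X2/3 channels of those afferents.

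The mice were C57BL/6 adults of 3 months, heterozygous for EGFP at the locus of Ret, a receptor tyrosine kinase for ligands of the GDNF family. Their genotype is given as Tg(Ret-EGFP)SJ, and every group carried it, so that no library came from mice without the reporter. Cells were dissociated and sorted by fluorescence, and each library is a pool. Male L6S1 had 4 libraries (replicates A, D, E and F; 3 to 9 mice per pool), male L345 had 3 (A, B and C; 2 to 5 mice), female L6S1 had 3 (A, B and C; 4 to 7 mice) and female L345 had 3 (A, B and C; 3 to 7 mice). The level of male L6S1 E and F is given by the sample names alone. Their sample numbers stand apart from those of the other male libraries, with no L345 library beside them. Whether E and F were prepared apart was not tested, and any such difference cannot be told apart from spinal level in them. The labels do not say whether L6S1 and L345 pools of 1 letter came from the same mice. In a pool, fewer cells of a type and less RNA per cell cannot be told apart.

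Total counts ran from 13030096 to 27011995 per library, and 3 counts, taken as the floor, equal 0.111 to 0.230 CPM (counts scaled to the library total) before scaling. Male L6S1 D and E stood apart on the first principal component, at 73.1 and 120.8, against -52.1 to 21.5 in the other 11 libraries. Transcripts of 12 nonpeptidergic nociceptor markers summed to 1158 CPM in D and 618 CPM in E, against 1555 to 2846 CPM in the others. Of these markers Mrgprd, Gfra2, Plxnc1, Gna14, Agtr1a and Ptgdr were lowest of the 13 libraries in E. Mrgprb5 was highest of the 13 in E (43.5 CPM), and Lpar3 (22.8 CPM) and Lpar5 (3.02 CPM) were lowest in female pools. The 9 peptidergic markers summed to 25714 and 32805 CPM in D and E and to 8827 to 15152 CPM in the others, and the 12 satellite glia markers to 1800 and 5832 CPM, against 882 to 1768 CPM. Calca and Tac1 made up most of the peptidergic sum, at 14253 and 7113 CPM in D and 17037 and 11125 CPM in E, while Trpv1 (221 CPM) and Kit (21.5 CPM) were lowest of the 13 libraries in E. Apoe held 4985 CPM of the satellite glia sum in E, where Glul (47.1 CPM), Kcnj10 (3.98 CPM) and Slc1a3 (2.11 CPM) were at their lowest of the 13. Ret itself was present in every library, at 87.2 CPM in E and up to 221 CPM elsewhere. The part of these differences in the receptor values was not tested. Results that rest on D and E are given with and without them. P-values measure the spread between pools.

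P2rx3 was the most abundant of the 10 transcripts per unit of length. Levels of different genes are compared here as RPKM, the TMM-scaled CPM per kilobase of gene length. P2rx3, which encodes the fast-desensitizing P2X3 subunit, averaged 71.0 ± 25.3 RPKM (SD, n = 13). P2ry1, the ADP receptor coupled to Gq, followed with 20.2 ± 8.28 RPKM, and the mean level of P2rx3 was 3.52-fold that of P2ry1. P2rx4, whose product is also found on lysosomes, had 9.90 ± 2.75 RPKM, and P2rx2, which encodes the slowly desensitizing partner of P2X3, had 7.70 ± 3.48 RPKM. A step of 4.80-fold in the mean separated P2rx2 from P2ry2, the ATP and UTP receptor, with 1.61 ± 0.413 RPKM. Below it lay the Gi-coupled ADP receptor P2ry12 with 1.03 ± 0.436 RPKM, P2rx5 with 0.759 ± 0.520 RPKM, P2rx6 with 0.624 ± 0.270 RPKM, the UDP-glucose receptor P2ry14 with 0.429 ± 0.373 RPKM and P2rx7 with 0.426 ± 0.131 RPKM.

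Of the 9 steps in this order, those from P2rx3 to P2ry1 and from P2rx2 to P2ry2 left no overlap between the neighbours' ranges of mean ± 1 SD of log2 RPKM over the 13 libraries. The other neighbours did not differ beyond that spread. P2rx3 ranked number 1 in each of the 13 libraries. P2ry1 ranked number 2 in 11 of them and number 4 in male L6S1 E and F, where P2rx2 ranked number 2 and number 3. The 6 lower receptors held small counts, and P2rx5 had 3 counts in female L345 A. The remaining P2X gene, P2rx1, had 0 to 2 counts per library.

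The 10 genes lie at 10 sites on GRCm38, among which P2rx7 and P2rx4 are neighbours on chromosome 5. P2rx7 (ENSMUSG00000029468) spans 122643911 to 122691432 and P2rx4 (ENSMUSG00000029470) spans 122707584 to 122729738, both on the plus strand, with 16152 bases between them. P2rx2 (ENSMUSG00000029503) lies elsewhere on the same chromosome, at 110339812 to 110343035 on the minus strand. P2rx3 (ENSMUSG00000027071) lies on chromosome 2 at 84998583 to 85037462, minus strand, and P2ry1 (ENSMUSG00000027765) on chromosome 3 at 61002795 to 61008979, plus strand. On the same chromosome P2ry12 (ENSMUSG00000036353) lies at 59216271 to 59262831 and P2ry14 (ENSMUSG00000036381) at 59114626 to 59130624, minus strand. P2ry12 and P2ry14 lie inside the span of Med12l, which is on the opposite strand, and share no exon base with it. P2rx5 (ENSMUSG00000005950) lies on chromosome 11 at 73160421 to 73172685, plus strand, and P2ry2 (ENSMUSG00000032860) on chromosome 7 at 100996572 to 101011991, minus strand. P2rx6 (ENSMUSG00000022758) lies on chromosome 16 at 17561885 to 17577800, plus strand. The library kit does not mark strand, and P2rx6 shares 554 of its exon bases (13.9%) with Slc7a4 on the opposite strand. Over the 13 libraries Slc7a4 held 15034 counts and P2rx6 held 668, and reads of the shared bases cannot be told apart. P2rx3 shares 51 exon bases (1.83%) with Ssrp1 in the same way.

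RefSeq promoter windows, from 250 bases before to 50 after a start, were at hand for 7 of the 10 genes on GRCm38.p6. P2rx2, P2rx3 and P2rx5 had none in the table. The windows of P2rx4 and P2rx7 are shown because these neighbours on 1 strand differed widely in level, and that of P2ry1 because it is the most abundant member with a window. They lie at chr5:122707294-122707593, chr5:122643677-122643976 and chr3:61002535-61002834, each on the plus strand. Capitals mark the letters GGGCGG on either strand, the core of the GC box.

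P2rx4 promoter: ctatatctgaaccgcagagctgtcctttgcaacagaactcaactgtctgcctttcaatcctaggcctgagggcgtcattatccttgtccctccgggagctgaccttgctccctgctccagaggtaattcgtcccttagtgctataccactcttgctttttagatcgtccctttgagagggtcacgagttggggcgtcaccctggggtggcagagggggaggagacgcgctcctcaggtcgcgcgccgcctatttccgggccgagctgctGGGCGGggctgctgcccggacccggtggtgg

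P2rx7 promoter: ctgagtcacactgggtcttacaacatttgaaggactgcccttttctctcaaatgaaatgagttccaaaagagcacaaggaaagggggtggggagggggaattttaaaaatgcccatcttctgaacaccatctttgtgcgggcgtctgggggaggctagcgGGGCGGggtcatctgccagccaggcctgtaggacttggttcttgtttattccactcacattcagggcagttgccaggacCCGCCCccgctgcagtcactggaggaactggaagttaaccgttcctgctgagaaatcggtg

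P2ry1 promoter: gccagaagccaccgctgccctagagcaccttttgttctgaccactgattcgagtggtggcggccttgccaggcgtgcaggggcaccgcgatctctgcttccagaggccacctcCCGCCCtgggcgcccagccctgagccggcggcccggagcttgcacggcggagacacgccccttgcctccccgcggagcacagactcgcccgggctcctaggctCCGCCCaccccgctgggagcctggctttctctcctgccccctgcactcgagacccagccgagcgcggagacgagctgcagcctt

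The P2ry1 window held 25 CpG dinucleotides, more than 81.6% of all 32851 windows, and 2 GC boxes at a GC content of 70.7%. The P2rx4 window held 18 CpG, more than 70.3% of windows, and 1 GC box. The P2rx7 window shown, the upstream one of 2, held 8 CpG, more than 51.4% of windows, and 2 GC boxes. The other, at chr5:122650133-122650432, held 4 CpG, more than 31.4% of windows, and 0 GC boxes. A GC box was present in 35.7% of all windows. None of the 3 windows held CCAAT (37.4% of all windows), TATAAA (13.6%) or TGTGGT (16.8%) on either strand. A letter match describes the window and shows no bound factor.

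**Figure D1:**
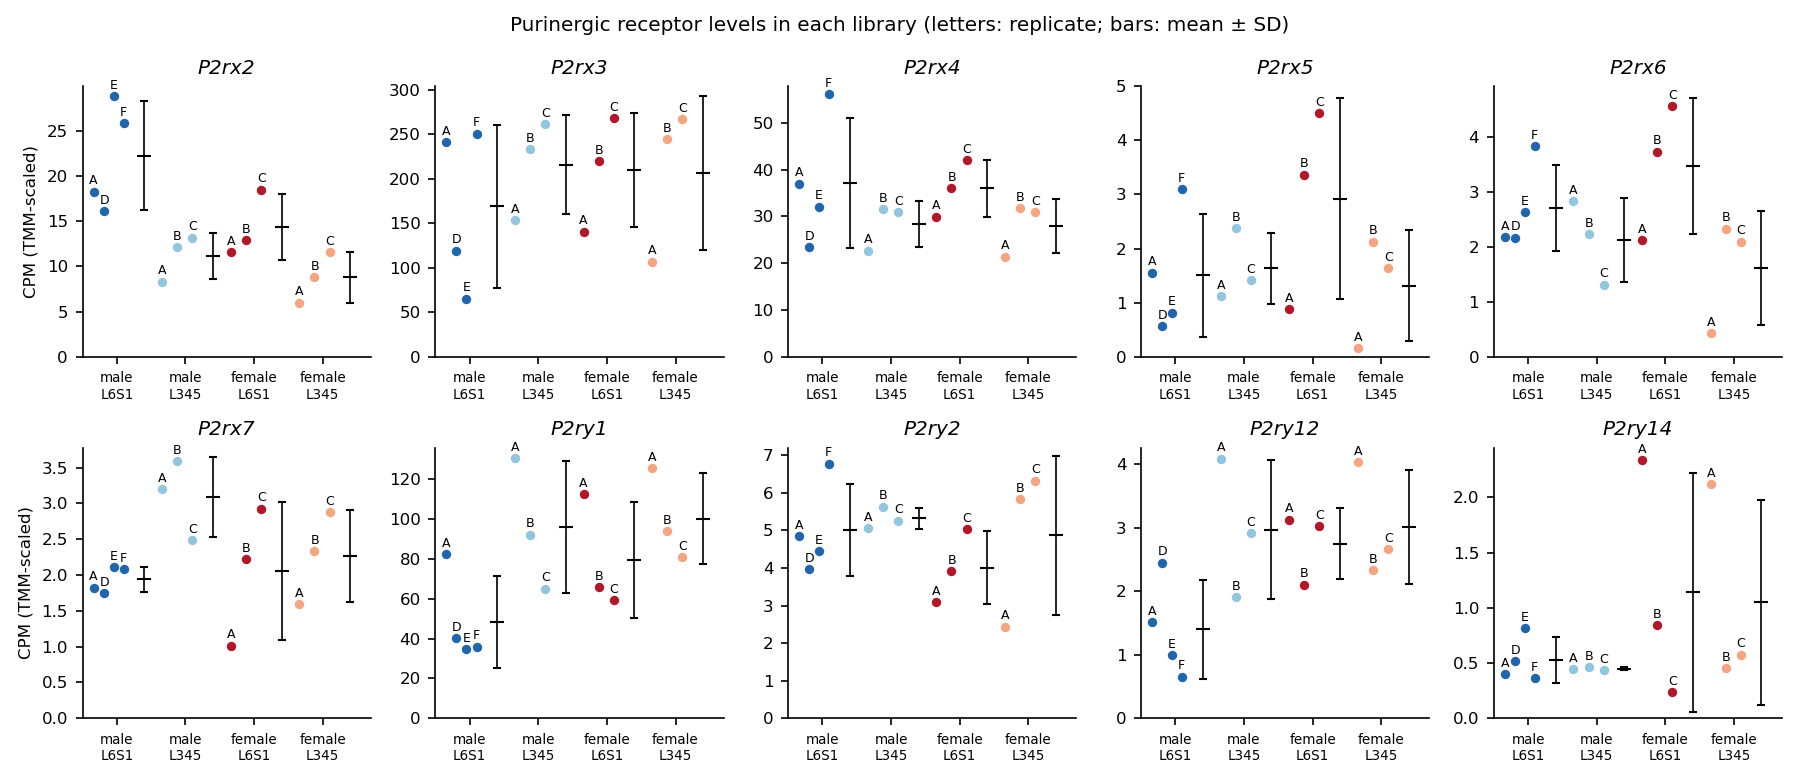
TMM-scaled CPM of each receptor transcript in every library (letters are replicates), with the mean ± SD of each group beside its points (n = 4 for male L6S1 and 3 for the other groups). P2rx2 lies higher at L6S1 than at L345 within each sex, with the nearest female pools level at 11.6 CPM, while P2rx3 varies from 65.3 to 268 CPM within the L6S1 libraries.

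P2rx2 had the clearest difference between spinal levels. Its level was 18.3, 16.1, 28.8 and 25.9 CPM in male L6S1 A, D, E and F, against 8.33, 12.1 and 13.2 CPM in male L345. In females it was 11.6, 12.9 and 18.5 CPM at L6S1 and 5.99, 8.82 and 11.6 CPM at L345. Every L6S1 pool lay above every L345 pool of its sex, though in females the nearest pools, L6S1 A with 11.596 CPM (263 counts) and L345 C with 11.580 CPM (282 counts), differed by less than counting error. In all, 5 of the 7 L6S1 pools lay above all 6 L345 pools, a count not made over all genes. L6S1 lay above L345 without overlap within each sex for 1 of the 10 receptors, and for 0.792% of all genes tested. None of the 10 lay below without overlap in both sexes, as 0.389% of genes did. Averaged over the sexes, P2rx2 was 1.80-fold higher at L6S1 (log2 fold change 0.85, SE 0.23). This did not pass adjustment over all genes in edgeR's quasi-likelihood test (unadjusted p = 0.0018, adjusted p = 0.177).

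The verdict on P2rx2 depended on the tool and on the model fitted. DESeq2 gave nearly the same fold change, 0.86 on the log2 scale, with an adjusted p of 0.0263, and called 0.695% of the 26901 genes with a count. With the replicate letter as a block shared over all groups, edgeR called P2rx2 too, among 837 of the 15406 genes tested. Over all settings tried the log2 fold change of P2rx2 stayed between 0.72 and 0.97, and its adjusted p ranged from 0.00387 to 0.497. Without male L6S1 D and E it was 0.83 (edgeR adjusted p = 0.222).

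P2rx3 itself showed no such pattern. It had 241, 119, 65.3 and 251 CPM in male L6S1 A, D, E and F and 154, 234 and 261 CPM in male L345. Female pools had 141, 220 and 268 CPM at L6S1 and 107, 245 and 267 CPM at L345. The groups overlapped, and the lowest L6S1 values came from D and E, which also had the lowest sums of the nonpeptidergic markers. The averaged log2 fold change was -0.17 (SE 0.32, edgeR adjusted p = 0.860), and it was 0.10 without D and E.

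The make-up of the P2X transcripts shows the same values as shares. P2rx2 made up 6.78% to 30.3% of the summed RPKM of the 7 P2X genes at L6S1 and 4.42% to 6.45% at L345, with no overlap. P2rx3 made up 47.3% to 79.5% at L6S1 and 79.2% to 84.8% at L345. Without D and E the male L6S1 shares of P2rx2 were 8.76% and 10.95%, which are still above every L345 pool. The ratio of P2rx2 to P2rx3 RPKM was 0.110, 0.196, 0.641 and 0.150 in male L6S1 A, D, E and F, against 0.0733 to 0.0789 in male L345. In females it was 0.0853 to 0.120 at L6S1 and 0.0523 to 0.0814 at L345. Each of the 7 L6S1 ratios was above each of the 6 L345 ratios. For both measures the nearest pools were female L6S1 B (6.78%, ratio 0.0853, 215 P2rx2 counts) and female L345 A (6.45%, ratio 0.0814, 113 counts). These 2 pools differed by less than counting error. How many other genes part the levels in this way was not counted. These shares are a description and were not tested, and a transcript ratio does not give the subunits in a channel.

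**Figure D2:**
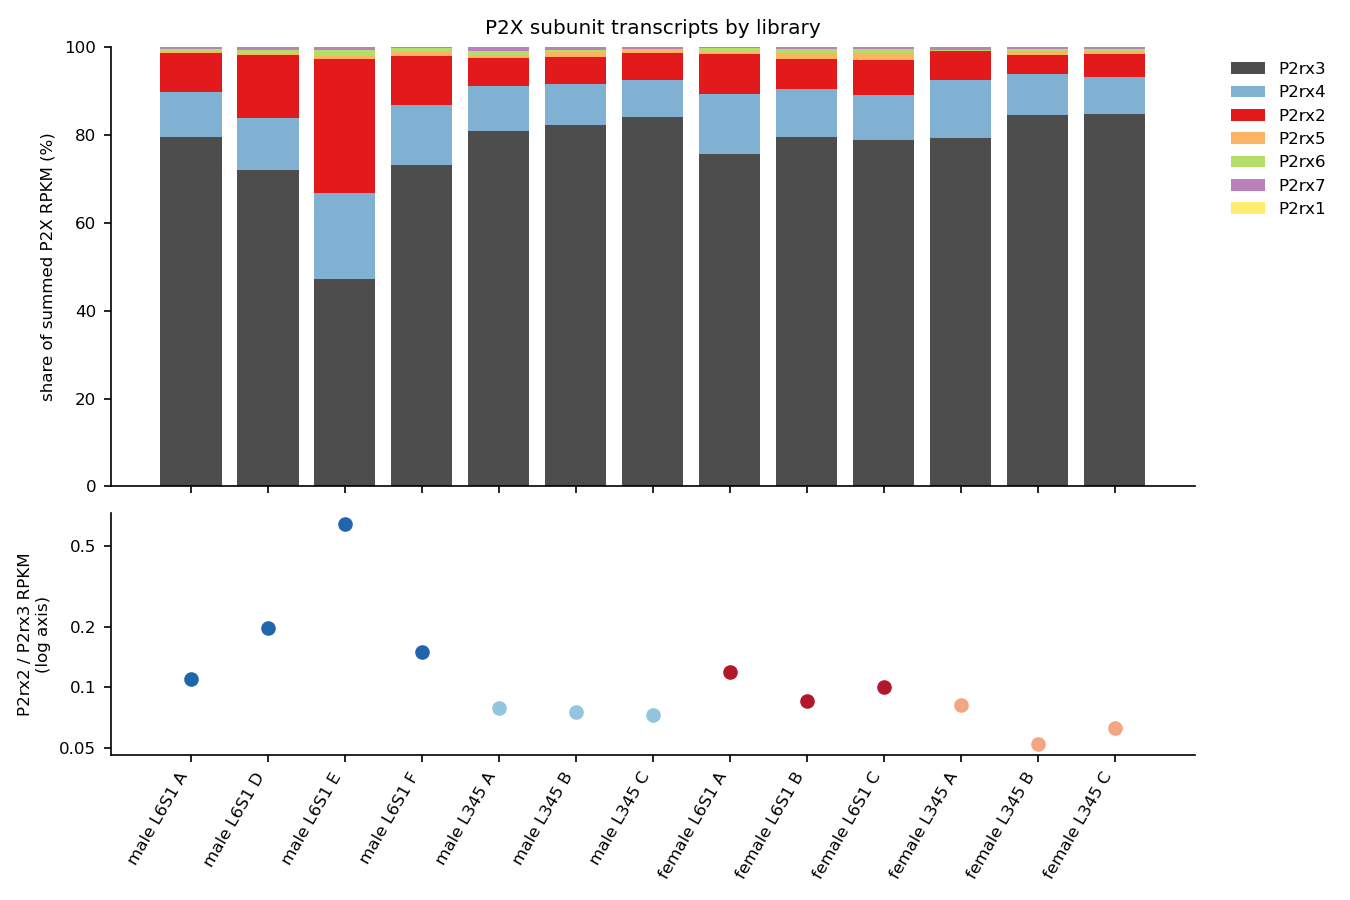
Upper panel, share of the summed RPKM of the 7 P2X genes held by each gene (%) in every library; lower panel, ratio of P2rx2 to P2rx3 RPKM on a log axis. Ratios at L6S1 (0.0853 to 0.641) lie above those at L345 (0.0523 to 0.0814), with male L6S1 E the farthest. The nearest ratios, both of female pools, differ by less than counting error.

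The other 4 P2X genes did not pass the test between the levels. P2rx4 had 37.0, 23.4, 32.1 and 56.1 CPM in male L6S1 A, D, E and F and 22.7, 31.6 and 30.9 CPM in male L345. Its female values were 29.9, 36.1 and 42.0 CPM at L6S1 and 21.4, 31.7 and 30.9 CPM at L345. The levels overlapped in both sexes, and 5 of the 7 L6S1 pools lay above all L345 pools, a count not made over all genes. The averaged log2 fold change was 0.38 (SE 0.22, edgeR adjusted p = 0.623).

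P2rx5, a subunit that joins P2X1 in mixed channels, had 0.566 to 3.10 CPM in male L6S1 and 1.12 to 2.37 CPM in male L345. In females it had 0.882, 3.37 and 4.51 CPM at L6S1 and 0.159, 2.13 and 1.64 CPM at L345. The averaged log2 fold change was 0.52 (SE 0.51, edgeR adjusted p = 0.730), an error as large as the effect. P2rx6, which forms poor channels alone and joins P2X2 or P2X4, had 2.17 to 3.83 CPM in male L6S1, 1.31 to 2.83 CPM in male L345, 2.12 to 4.56 CPM in female L6S1 and 0.424 to 2.33 CPM in female L345. Its log2 fold change was 0.72 (SE 0.35, edgeR adjusted p = 0.593). Whether its counts include reads of the bases shared with Slc7a4 is not known.

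P2rx7, the low-affinity ATP receptor best known from immune cells and glia, differed the other way in sign. It had 1.74 to 2.11 CPM in male L6S1 and 2.48 to 3.58 CPM in male L345, on 36 to 77 counts per male library. Within males its unadjusted p was 0.0784 in edgeR, where 25.3% of all genes lay under 0.05. Female pools had 1.01 to 2.93 CPM at L6S1 and 1.59 to 2.87 CPM at L345. The averaged log2 fold change was -0.41 (SE 0.26, edgeR adjusted p = 0.641). The summed level of 15 macrophage markers was 6.32 to 23.2 CPM in male L6S1, 4.61 to 9.97 CPM in male L345, 7.19 to 7.88 CPM in female L6S1 and 4.64 to 8.01 CPM in female L345. Cd163 and C1qa had at most 3 counts in every library, Csf1r reached 0.534 CPM and Cx3cr1 reached 0.744 CPM. C1qb (10.7 CPM) and Lyz2 (8.13 CPM) made up most of the sum in male L6S1 E. C1qb averaged 6.83 CPM in male L6S1 and 1.09 CPM in male L345, and 3.02 and 0.923 CPM in females. Cx3cr1 and Itgam averaged less at L6S1 than at L345 in both sexes. Of the 15 macrophage markers 4 were tested, of which 1 was called higher and 0 were called lower at L6S1, where 0.448% of all genes were called. In the 8 lists for other cell types, namely 4 kinds of sensory neuron, satellite glia, Schwann cells, vessel cells and fibroblasts, 0 markers were called. With so few calls over all genes, this does not show a like make-up of cells. The median log2 fold change was -0.70 over the Schwann cell markers, 0.46 over the peptidergic and -0.40 over the nonpeptidergic ones. It was -0.24 to 0.095 in the rest of the 8 lists, beside 0.02 over all genes. The part of macrophages in the P2rx7 values was not tested.

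P2ry1 had the smallest unadjusted p of the 4 P2Y receptors between the levels over all 13 libraries. It had 82.5, 40.1, 34.9 and 35.9 CPM in male L6S1 A, D, E and F and 131, 92.1 and 65.0 CPM in male L345. In females it had 113, 65.9 and 59.2 CPM at L6S1 and 125, 94.0 and 80.9 CPM at L345. Of the 7 L6S1 pools, 4 lay below all 6 L345 pools, a count not made over all genes. The A replicate was the highest of its group in all 4 groups. Averaged over the sexes the log2 fold change was -0.66 (SE 0.26), with an unadjusted p of 0.0217 and an adjusted p of 0.518 in edgeR. Without male L6S1 D and E it was -0.52 (SE 0.26, adjusted p = 0.712).

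P2ry12, a receptor of platelets and microglia that satellite glia also express, had 1.51, 2.45, 0.994 and 0.656 CPM in male L6S1 A, D, E and F, against 4.09, 1.91 and 2.92 CPM in male L345. Female pools had 2.11 to 3.13 CPM at L6S1 and 2.33 to 4.03 CPM at L345. The averaged log2 fold change was -0.60 (SE 0.31, edgeR adjusted p = 0.593). Without male L6S1 D and E it was -0.79 (SE 0.30, adjusted p = 0.518).

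P2ry2 averaged 5.01 ± 1.23 CPM in male L6S1 (SD, n = 4) and 5.32 ± 0.292 CPM in male L345 (n = 3). In females it averaged 4.01 ± 0.979 CPM at L6S1 and 4.86 ± 2.11 CPM at L345 (n = 3 each). The log2 fold change of -0.18 (SE 0.24, edgeR adjusted p = 0.800) was smaller than its error. P2ry14 lay between 0.240 and 0.842 CPM in 11 libraries, and at 2.34 and 2.12 CPM in the A replicates of female L6S1 and female L345. Its log2 fold change was 0.17 (SE 0.50, adjusted p = 0.913).

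Over the 10 receptors the averaged level comparison had 0 calls by edgeR, where 0.448% of all genes were called. An unadjusted p under 0.05 was reached by 2 of 10, P2rx2 and P2ry1, against 8.39% of all genes. DESeq2 called 1 and limma voom, which called 0.363% of genes, called 0. In sign 5 were higher and 5 lower at L6S1, with a median log2 fold change of 0.00, beside 0.02 over all genes tested. Of the 6 P2X genes P2rx2, P2rx4, P2rx5 and P2rx6 had positive values, and P2rx3 and P2rx7 negative ones. Among the 4 P2Y genes P2ry14 was positive and the others negative. The values of P2rx3, P2ry2 and P2ry14 were smaller than their SE.

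**Figure D3:**
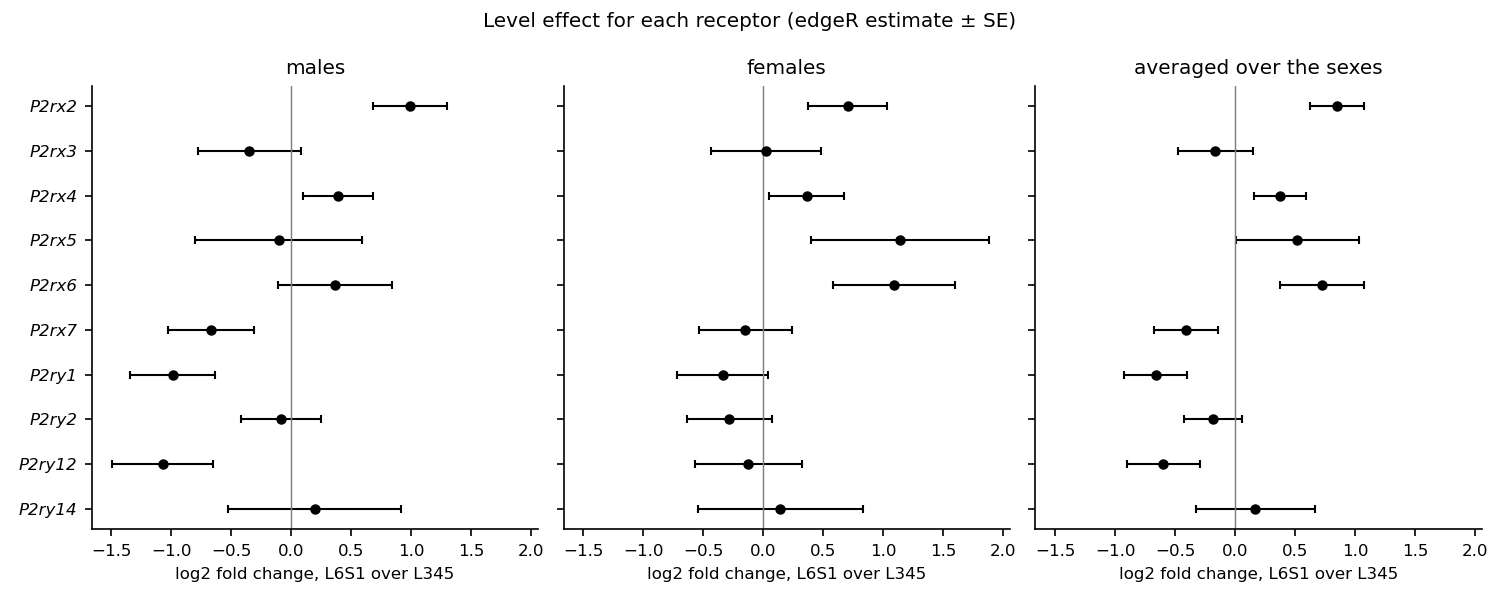
Log2 fold change of each receptor transcript, L6S1 over L345 (edgeR estimate, bars ± SE), in males, in females and averaged over the sexes, on 1 scale. P2rx2 lies right of 0 in each panel (0.99, 0.70 and 0.85) and P2ry1 left of it (-0.99, -0.34 and -0.66).

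Pairs of pools of 1 replicate letter within a sex offer a second view of the levels. Such pairs exist for female A, B and C and for male A. Their deviations from the group means correlated at 0.520, 0.203, 0.488 and 0.101 in this order. Pools of different letters reached 0.252 (female L6S1 B with L345 C) and 0.207 (male L6S1 F with L345 C). The letter is thus a weak guide for female B and male A. P2rx2 at L6S1 was 1.93, 1.47 and 1.60 times its L345 partner in female A, B and C and 2.20 times in male A. P2rx4 was 1.397, 1.14, 1.36 and 1.63 times its partner in this order, and P2rx5 was 5.54, 1.58, 2.75 and 1.396 times. These 3 receptors were higher at L6S1 in 4 of 4 pairs, as were 9.57% of all genes. P2ry1 was lower at L6S1 in 4 of 4 pairs, at 0.898, 0.701, 0.731 and 0.632 times its partner, as were 8.97% of all genes. A fit with the letter as a block within a sex gave P2rx2 a log2 fold change of 0.82 (SE 0.18, edgeR adjusted p = 0.0568) and called 0 of the 10, where it called 0.584% of all genes. In that fit the level effect rests on the 4 pairs alone, with 3 residual degrees of freedom. The male pools without a partner do not bear on it.

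**Figure D4:**
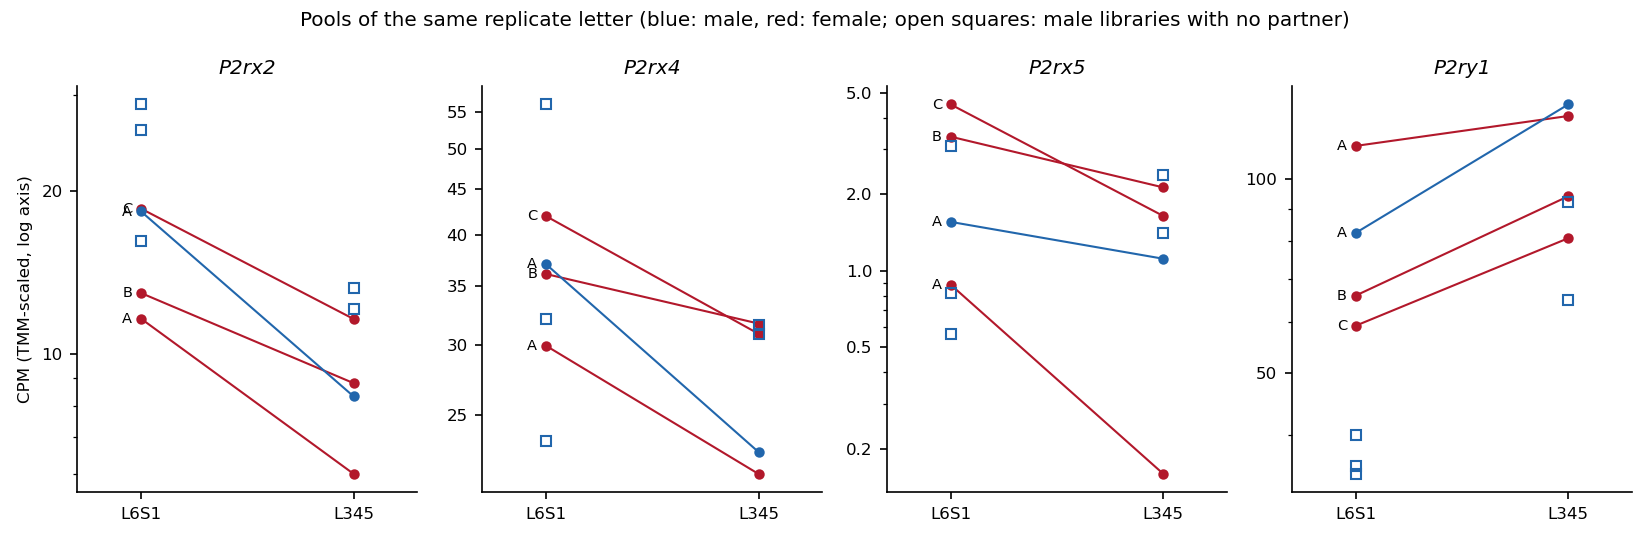
CPM (log axis) of 4 receptors at L6S1 and L345, with lines joining pools of 1 letter (blue male, red female) and open squares for male pools without a partner. In each pair P2rx2, P2rx4 and P2rx5 are higher at L6S1 and P2ry1 is lower.

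Within males P2rx2 was 1.98-fold higher at L6S1 (log2 fold change 0.99, SE 0.31, edgeR adjusted p = 0.137). The log2 fold change of P2ry1 was -0.99 (SE 0.35) at an adjusted p of 0.142, and that of P2ry12 -1.07 (SE 0.42) at 0.156. These were the 3 of 10 receptors with an unadjusted p under 0.05, where 25.3% of all genes had one, and 0 of 10 were called, where 0.221% of genes were. DESeq2 called P2rx2 in males (adjusted p = 0.0367), as it did 965 (3.59%) of the 26901 genes with a count. Limma voom called 0, as against 0.104% of the 15406 genes tested. The number of genes called turned on male L6S1 A: without it 3135 genes were called in place of 34. P2rx2 (1.07, adjusted p = 0.0339) and P2ry1 (-1.37, adjusted p = 0.0156) were then among them. Male L6S1 A is the sole male L6S1 library with a letter shared by other groups, and its P2ry1 level lay within the range of male L345 pools. Male L6S1 E and F, whose sample numbers stand apart, held the highest P2rx2 levels of that group (28.8 and 25.9 CPM). They also held its lowest P2ry1 levels (34.9 and 35.9 CPM), and a fit without both E and F was not made. Without D and E the log2 fold change in males was 0.97 for P2rx2, -0.70 for P2ry1 and -1.46 for P2ry12, with adjusted p of 0.606, 0.623 and 0.570.

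Within females P2rx2 was 1.63-fold higher at L6S1 (log2 fold change 0.70, SE 0.33) and P2rx6 2.13-fold higher (1.09, SE 0.51). Their unadjusted p were 0.0478 and 0.0477, and each had an adjusted p of 1 in edgeR. An unadjusted p under 0.05 was thus found for 2 of the 10, and for 2.25% of all genes. P2ry1 and P2ry12 had log2 fold changes of -0.34 (SE 0.38) and -0.12 (SE 0.44). Of the 10 receptors 0 were called, where 0.0195% of all genes were. DESeq2 and limma voom also called 0, beside 0.175% of the 26901 genes with a count and 0.0714% of the 15406 tested. The block within a sex raised the count over all genes to 56 (0.363%), against 3 without it, and still called 0 of the 10.

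The level effect was not shown to differ between the sexes for any receptor. The difference, male effect minus female effect, was 0.28 on the log2 scale for P2rx2 (SE 0.45, edgeR adjusted p = 0.762), -0.65 for P2ry1 (SE 0.52, adjusted p = 0.536) and -0.95 for P2ry12 (SE 0.61, adjusted p = 0.460). None of the 10 reached an unadjusted p under 0.05, which 11.7% of all genes did, and 0% of genes were called by edgeR, DESeq2 and limma voom.

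No receptor passed the test between males and females. P2rx2 averaged 22.3 ± 6.05 CPM in male L6S1 (SD, n = 4), 14.3 ± 3.67 CPM in female L6S1 (n = 3), 11.2 ± 2.55 CPM in male L345 and 8.80 ± 2.79 CPM in female L345 (n = 3 each). Averaged over the levels it was 1.41-fold higher in males (log2 fold change 0.49, SE 0.22, unadjusted p = 0.0437, edgeR adjusted p = 0.665). P2ry14 was lower in males (-1.17, SE 0.50, unadjusted p = 0.0316, adjusted p = 0.665), where the 2 female A libraries held its highest values. Of the 10 receptors 0 were called, where 0.0779% of all genes were, and these 2 had an unadjusted p under 0.05, as did 6.10% of all genes. DESeq2 and limma voom also called 0 of the 10, beside 0.0892% of the 26901 genes with a count and 0.0779% of the 15406 tested.

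At L6S1 the log2 fold change of males over females was 0.63 for P2rx2 (SE 0.31, edgeR adjusted p = 0.202), -0.71 for P2ry1 (SE 0.35, adjusted p = 0.209) and -0.98 for P2ry12 (SE 0.42, adjusted p = 0.164). Of the 10, 0 were called, where 0.0844% of genes were, and P2ry12 alone had an unadjusted p under 0.05, which 26% of genes had. Without male L6S1 A, P2ry1 was called (-1.10, adjusted p = 0.0273), among 3149 genes in place of 13. At L345 no receptor had an unadjusted p under 0.05, which 0.863% of genes had, and 0 were called, where 0.0325% of genes were. The submitters' processing notes name STAR, Salmon and mm10 for the 6 female libraries and not for the 7 male ones, so that sex and any difference in processing cannot be told apart.

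Across pools some receptors varied together. As Pearson r of log2(CPM + 0.5) over the 13 libraries, P2rx2 and P2ry1 had -0.87, and -0.86 without male L6S1 D and E (n = 11). P2rx2 and P2ry12 had -0.81, and -0.78 without them. P2rx2 and P2rx4 had 0.69, which was 0.94 in the 11. P2rx2 and P2rx3 had -0.05 over all 13 and 0.68 over the 11, so that this value rests on D and E. P2ry2 and P2ry14 had -0.84 and -0.87, and P2rx5 and P2rx6 had 0.79 and 0.89. These r describe libraries that share groups, letters and depth.

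The genes with a pattern most like that of P2rx3, of 11264 compared over the 13 libraries, were Dhcr7 (r = 0.99), Eef2 (0.99), Nfe2l1 (0.99), Map3k14 (0.99) and Scn10a (0.98). Without D and E their r with P2rx3 were 0.98, 0.98, 0.97, 0.97 and 0.97 in this order. Scn10a encodes a voltage-gated sodium channel of nociceptors, Dhcr7 the last enzyme of cholesterol synthesis and Eef2 an elongation factor of translation, while Nfe2l1 is a transcription factor and Map3k14 a kinase of noncanonical NF-kappaB signalling. Mrgprd, the receptor that marks nonpeptidergic nociceptors, stood at rank 224 with 0.93, and 0.87 without D and E. Ret had 0.76, and 0.14 without D and E.

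The rest of the P2 family was scarcely present. P2rx1, P2ry4, P2ry6, P2ry10, P2ry10b, P2ry13 and the related Gpr17 and Gpr34 reached at most 0.636 CPM in any library, and 0 of these 8 passed the low-count filter. Of 20 genes for ATP release and vesicular nucleotide transport 14 were tested, with 0 called higher and 0 lower at L6S1, 4 with an unadjusted p under 0.05, and a median log2 fold change of -0.27. Of 32 genes for P2 receptor coupling and partners 29 were tested, with 0 called in either direction, 4 under the unadjusted limit, and a median of -0.22. The same counts were 13 of 14 tested, 0 called and 1 under the limit for a list of ectonucleotidases, which break down extracellular nucleotides (median -0.07). The 1 gene under the limit was Ada, adenosine deaminase, which like Adk was in that list without being an ectonucleotidase. For adenosine receptors the counts were 3 of 4, 0 and 0 (median 0.03). The median over all genes was 0.02. Within males, where D and E are part of L6S1, the medians of the first 2 lists were -0.66 and -0.38 (6 and 10 genes under the unadjusted limit), beside 0.04 over all genes, and within females they were -0.015 and -0.028 (1 gene each), beside 0.00046. For males over females 0 genes of each list were called.

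Some of these genes were abundant, and the following were chosen after their values were seen. Pirt, a membrane protein reported to bind P2X3, averaged 1452 CPM over the 13 libraries, and Gnaq, the G protein subunit through which P2Y1 signals, averaged 1365 CPM. Acpp, an acid phosphatase that turns AMP into adenosine in nociceptors, averaged 846 CPM and Entpd3, an ATP-hydrolysing enzyme, 182 CPM. Slc17a9, the vesicular nucleotide transporter, reached at most 0.265 CPM. The smallest unadjusted p of any list gene between levels was that of Ada, adenosine deaminase, with 16.9 CPM at L6S1 and 10.6 CPM at L345 on average (log2 fold change 0.68, SE 0.22, edgeR adjusted p = 0.361).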

How the data were processed

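RNA was measured in 13 pools of sorted cells. Libraries started from 10 ng of RNA (SMARTer Ultra Low Input), per the labels' protocols. Tools in the submitters' processing notes are featureCounts 1.4.5 and Subread, with GRCm38.p2, for all libraries, and also Salmon, STAR 2.0.4b and mm10 for the female ones, with no role or order. Use of strand and of multi-mapped reads is not given in the notes or labels. The authors deposited raw counts as whole numbers. Their deposited CPM is the count scaled to the library total (recomputed within 5.10e-15, relative), and their deposited RPKM divides this by gene length in kilobases (within 5.22e-14). Both columns served as a check. CPM and RPKM printed here were recomputed with TMM factors, which were 0.796 in male L6S1 E, 0.925 in D and 1.01 to 1.05 elsewhere. GENCODE M21 on GRCm38 gave symbols to 40340 identifiers, and the 1048 without one held 0.0828% of counts.

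After filterByExpr, 15406 genes entered edgeR 4.0.16 (R 4.3.3), robust quasi-likelihood fit, 1 mean per group, F-tests adjusted by Benjamini-Hochberg over them all. Calls needed an adjusted p under 0.05. SEs were derived by dividing the absolute log2 fold change by the root of F. The 7 comparisons were L6S1 against L345 averaged, in males and in females, the difference between those effects, and males against females averaged, at L6S1 and at L345. The receptors and gene lists were chosen with earlier results of these data known. All 10 receptors are named in every comparison, list genes when called, and the 5 genes most like P2rx3 by r, among tested genes whose mean log2 CPM was 1 or more, without predicted genes. Alternatives were RLE factors, library totals alone, DESeq2 1.42.0, limma voom 3.58.1, no low-count filter, replicate blocks, and leaving out libraries. On simulated data the averaged level comparison recovered 48.5% of 99 genes changed by 1 on the log2 scale and 95.8% of 96 changed by 2, among 15406 genes.

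Replicate letters come from the labels. Same-letter pools of the 2 levels in 1 sex correlated in their deviations from the group means at 0.101 to 0.520 in 4 of 4 pairs, so the letter was used as a block within a sex. Pools of different letters in different groups ran from -0.556 to 0.456, so the lower same-letter values do not set the pairs apart. Floors cover counting error only, while SDs hold the spread between pools as well, and amplified reads with no molecular identifiers can be copies of 1 molecule.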

Additional observations from a re-analysis of the deposited data

Results flagged for a closer look

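Levels and P2X measures of male L6S1, the sole group of 4 libraries, were tested in 13 cases for a library far from the rest, and chance flags about 1 in 20. P2ry1 in male L6S1 stood out for replicate A, at 82.5 CPM, against a nearest value of 40.1 CPM in D. That gap is 0.891 of the range of the group, above the critical value of 0.829 for 4 samples. The ratio of P2rx2 to P2rx3 RPKM in male L6S1 stood out for replicate E, at 0.641, against a nearest value of 0.196 in D, a gap of 0.838 of the range. E also had the lowest sum of nonpeptidergic markers, at 618 CPM. What sets these libraries apart was not tested.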

How the results depend on the processing

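Under the alternatives, 93 gene counts stayed within 1.5 times the main count and 49 did not. Main counts were 69 genes (averaged level), 34 (males), 3 (females), 0 (difference between sexes), 12 (averaged sex), 13 (sex at L6S1) and 5 (sex at L345). DESeq2 called 187, 965, 47, 0, 24, 1281 and 8 in this order, and no low-count filter gave 144, 264, 34, 1, 19, 197 and 8. The replicate block shared over all groups gave 837, 719, 96, 31, 369, 669 and 8. Letters did not pair all groups: 11 of 12 same-letter pairs correlated above 0.1, the lowest was -0.106, and 7 of 10 libraries were closest to their own letter. Limma voom gave 16 in males and 11 in females. The replicate block within sex, added after the data were seen for the female effect, gave 56 there and changed no other call of the 10 receptors. Without male L6S1 D and E the counts were 19 (males), 23 (females), 7 (averaged sex) and 6 (sex at L6S1). Leaving out 1 library gave 28 to 129, 4 to 3135, 0 to 11, 0, 10 to 14, 9 to 3149 and 5, with the top values for males and for sex at L6S1 reached without male L6S1 A.

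Past the threshold under an alternative came P2rx2 by DESeq2 (0.86 averaged, 1.00 in males), and under the shared block P2rx2 (0.92, in males 1.12), P2rx4 (0.54) and P2ry1 (-0.50) in the averaged level. That block also called P2rx3 with its sign turned, in males (0.79) and between the sexes (0.49 averaged, 0.85 at L6S1). Leaving out male L6S1 A called P2rx2 and P2ry1 in males and P2ry1 between the sexes at L6S1. Of the receptor values checked under alternatives, all those averaged over sexes or levels and some within a sex or level, 659 kept direction and side, 9 passed with their sign kept and 26 turned sign. Values outside these also turned sign, such as P2rx3 in males. For the averaged level the shared block turned P2rx3 (0.43), P2ry2 (0.026) and P2ry14 (-0.63), the block within sex turned P2rx3 (0.22) and P2ry14 (-0.023), and leaving out D and E turned P2rx3 (0.10) and P2ry14 (-0.050). P2ry14 ranged from -0.38 to 0.65 when 1 library was left out, and was negative without female L6S1 A (-0.38) or female L345 B (-0.0090). For averaged sex, P2rx3 turned under the shared block (0.49, adjusted p = 0.0498) and without D and E (0.14), and P2rx5 under the shared block (0.57) and voom (0.00033). P2rx4 and P2rx6 turned with library totals alone (-0.038 and -0.069). They ranged from -0.10 to 0.10 and from -0.23 to 0.18 with 1 library left out, and both were negative without female L6S1 A, female L345 A, male L6S1 F or male L345 B, as was P2rx6 without male L345 A. In females P2ry12 ranged from -0.28 to 0.13, and was positive without L6S1 B (0.035) or L345 A (0.13). The causes were not tested. Library totals alone moved the median of all genes for sex at L6S1 to -0.11, against 0.03 with TMM. Leaving out a library gave P2rx2 0.72 to 0.97 (averaged level), 0.81 to 1.12 (males) and 0.48 to 0.95 (females). Depth limits P2rx5, P2rx6, P2rx7, P2ry12 and P2ry14 most, with counts down to 3.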
